A study of Mus musculus with 6 samples.

Results

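Amino acid and neurotransmitter transporter genes were examined in whole mouse kidney. They were taken from 7 solute carrier (Slc) families, numbered 1, 3, 6, 7, 36, 38 and 43, by matching the gene symbol. Of 59 symbols that matched, 48 had at least 10 counts in at least 3 of the 6 libraries and form the gene set described here, out of 24422 genes in the count tables. Of these 48 transporter genes, 47 passed the low-count filter of the test, which kept 15171 genes in all, and only Slc7a15 did not. RNA sequencing compared 3 control kidneys, labelled wild type, with 3 kidneys of the genotype Tfr1 f/f;KspCre, labelled TfR1KO;KspCre and called knockouts below. All 6 were C57BL/6 kidneys of postnatal day 60 on an iron-sufficient diet of 220 ppm iron. In the knockouts the exons of the transferrin receptor gene that encode its transmembrane domain were floxed, and Cre was expressed from the Ksp-cadherin promoter, a driver for the distal nephron. The libraries came from whole kidney, so they also hold the proximal tubule and the other cells in which this driver is not expected to act. The comparison asks how transporter transcripts of the whole organ differed when the receptor for transferrin-bound iron was targeted in the distal nephron.

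The kidney filters free amino acids and recovers nearly all of them in the proximal tubule. Carriers in the luminal brush border take amino acids into the cell, mostly coupled to sodium or protons, and exchangers and uniporters in the basolateral membrane release them to the blood. Several carriers work as pairs, in which a light chain of the Slc7 family does the transport and a heavy chain of the Slc3 family brings it to the membrane. Related carriers move osmolytes such as betaine and taurine, creatine, and the neurotransmitters GABA, glutamate and serotonin, and most cells use a further set to feed protein synthesis.

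Total counts were 11501053 to 21001341 per library, and the 48 transporter genes held 0.552% to 0.574% of the counts in controls and 0.315% to 0.415% in knockouts. Levels are in CPM, which scales the counts to library size, after TMM normalization, unless stated otherwise. The targeted gene, Tfrc, was at 138.5, 167.9 and 61.95 CPM in controls 1 to 3 and at 214.4, 85.96 and 40.6 CPM in knockouts 1 to 3. Its counts cover the exons outside the deletion and the cells without Cre, so this overlap does not check the labels, and groups follow the labels throughout. Control 2 stood apart in sex-linked transcripts. It held 52 Xist counts against 10458 to 23845 in the other 5 libraries, and 3980 counts of 4 Y-linked genes against 3 to 5. The labels give no sex, and results are therefore also given without control 2.

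Among the 47 transporter genes tested, 4 of 8 luminal carriers fell in knockouts and 4 of 14 carriers for cell nutrition rose. With edgeR's quasi-likelihood test at an adjusted p under 0.05, 9 of the 47 (19.1%) were called, where 17.2% of all genes tested were called. The 5 that fell (10.6% of the 47, against 6.64% of all genes) were Slc6a19, Slc3a1, Slc7a9, Slc7a7 and Slc36a1. The 4 that rose (8.51%, against 10.6% of all genes) were Slc7a2, Slc7a11, Slc7a1 and Slc38a2. Slc7a11 met the count rule only through the knockouts, where it is high, so its entry depended on its rise, and without it 3 of 46 (6.52%) rose. At an unadjusted p under 0.05 the count was 24 of 47 (51.1%, against 38.6%). Groups did not overlap for 22 of 47 (46.8%, against 46.0%), with 15 lower in all knockouts (31.9%, against 22.2%) and 7 higher (14.9%, against 23.8%). The share called was near that of all genes, and 27 of the 47 had a lower and 20 a higher fitted level in knockouts. The median log2 fold change of knockout against control was -0.24 over the 47 transporter genes and 0.02 over all genes tested. Of the 47, 16 were at least 2-fold lower and 6 at least 2-fold higher.

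**Figure D1:**
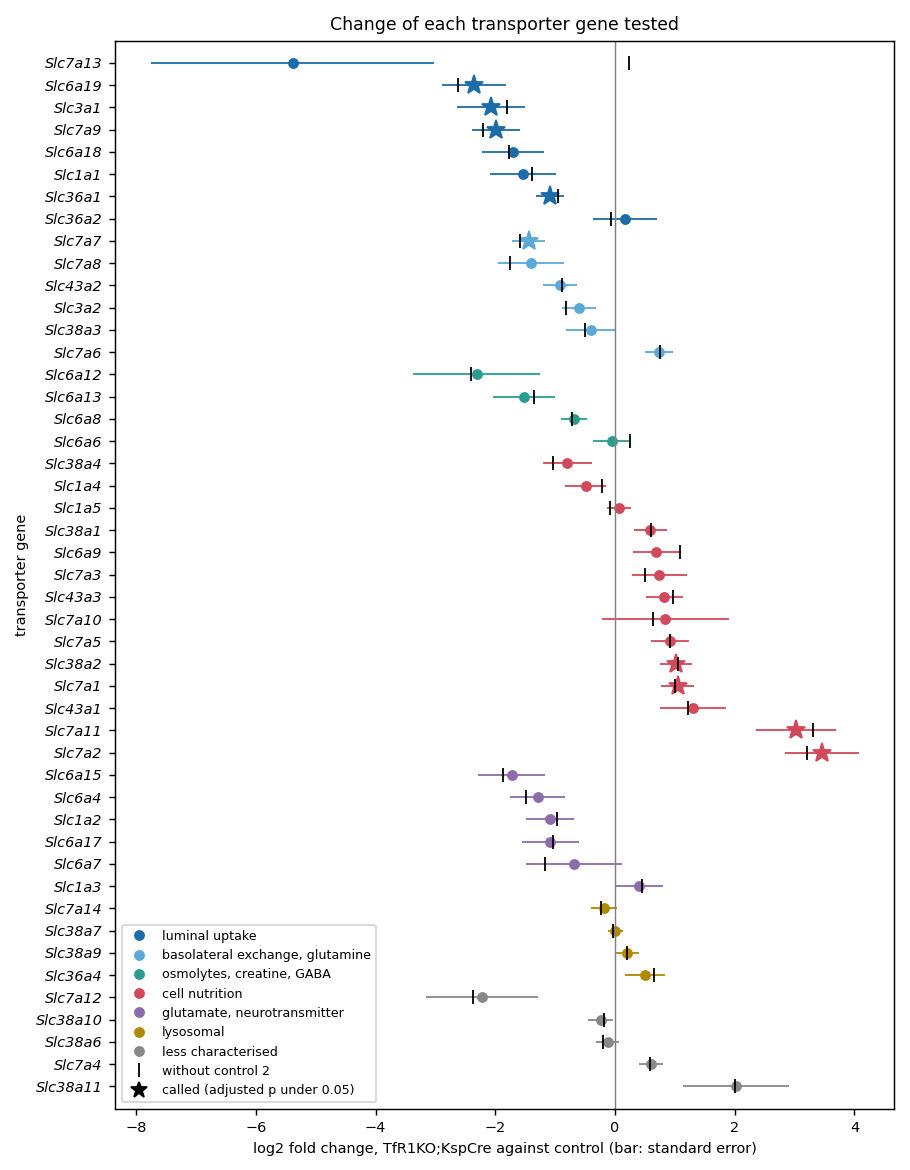
Log2 fold change of knockout against control (x axis) for each of the 47 transporter genes tested (y axis), coloured by role, with bars of 1 standard error, stars for the 9 genes called by edgeR, and black ticks for the value without control 2. Luminal carriers lie mostly left of 0 and cell nutrition carriers mostly right, and the tick of Slc7a13 lies far from its point, at 0.23 against -5.39.

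The calls depended on which libraries were in the fit. Without control 2 edgeR called 0 of 48 transporter genes and 0% of all 15565 genes tested, with a smallest adjusted p of 0.118 over all genes. At an unadjusted p under 0.05 it then found 19 of 48 (39.6%, against 27.4% of all genes). The log2 fold changes of the 9 called genes without control 2 lay between -2.62 and -0.96 for the 5 that fell and between 0.99 and 3.31 for the 4 that rose. Leaving out control 1 or control 3 likewise gave 0 calls among all genes (0%), and leaving out knockout 2 or knockout 3 gave calls for 0.474% and 0.0130% of all genes and for 0 transporter genes. At an unadjusted p under 0.05 there were 21 of 48 transporter genes without control 1 (4808 of all 15518 genes) and 16 of 48 without control 3 (4823 of 15624). There were 14 of 47 without knockout 2 (4604 of 15408) and 17 of 48 without knockout 3 (4456 of 15439). Without knockout 1, by contrast, 21 of 47 transporter genes (44.7%) and 34.4% of all genes were called, 15 lower and 6 higher, with the 9 above among them and 12 gained. Knockout 1 lay within the control range for 19 of the 47 transporter genes. It was the highest of all 6 libraries for Slc7a5, Slc38a1 and Slc7a4 and the lowest for Slc36a2, Slc43a1, Slc1a3 and Slc7a10. For 5 of the 47 the sign of the change turned without control 2, and none of these 5 was called.

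**Figure D2:**
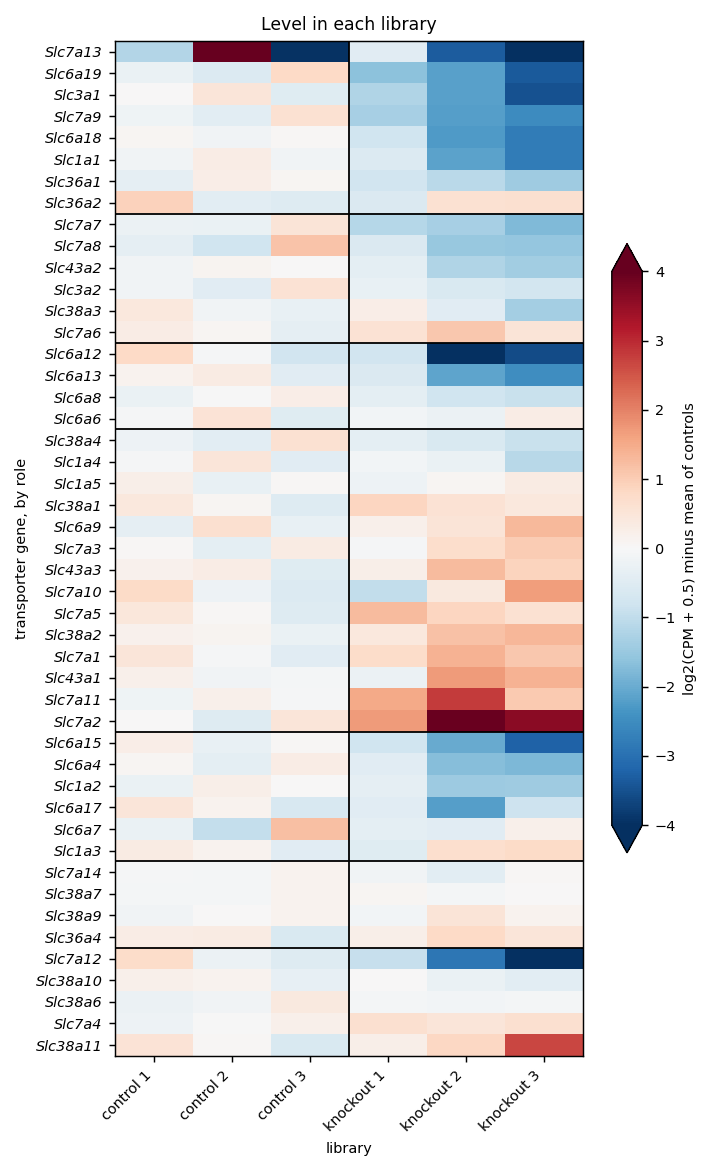
Level of each of the 47 transporter genes tested (rows, by role, with lines between roles) in each of the 6 libraries (columns), as log2(CPM + 0.5) minus the mean of the 3 controls; red is above and blue below that mean, and the colour scale ends at -4 and 4. In the rows of Slc6a18, Slc3a1 and Slc6a12 knockouts 2 and 3 are darker than knockout 1, and Slc7a13 is dark red in control 2 alone.

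Carriers of the luminal membrane made up the group of largest decrease. All 8 were tested, 7 had a lower mean in knockouts and 4 fell by edgeR's test (6.64% of all genes fell), with a median log2 fold change of -1.85. Without knockout 1 the median was -2.50 with 6 called (34.4% of all genes), and without control 2 it was -1.58 with 0 called by edgeR and 5 at an unadjusted p under 0.05 (27.4% of all genes). Slc6a19 (chr13:73817193-73842313 in mm9, minus strand), the main sodium-coupled carrier of neutral amino acids, was at 333, 278 and 701 CPM in controls 1 to 3 and at 129, 88.4 and 38.5 CPM in knockouts 1 to 3. Even the highest knockout held less than any control. It fell 5.13-fold (log2 fold change -2.36, SE 0.53, edgeR adjusted p = 0.0355). Slc6a18, a related neutral amino acid carrier of the later proximal tubule, was at 1362, 1177 and 1321 CPM in controls and at 734, 266 and 184 CPM in knockouts. By its mean level in CPM per kilobase of exon it was the most abundant of the transporter genes in controls. Its groups did not overlap, but it missed the threshold (log2 fold change -1.70, SE 0.52, edgeR adjusted p = 0.0612). Without knockout 1 it passed, at -2.52 (edgeR adjusted p = 0.00244).

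Slc3a1 and Slc7a9 form the luminal exchanger that recovers cystine and the cationic amino acids, and loss of either causes cystinuria. Slc3a1 (chr17:85427687-85463583, plus strand), the heavy chain, was at 418, 578 and 298 CPM in controls and at 181, 91.0 and 36.5 CPM in knockouts. It fell 4.20-fold (log2 fold change -2.07, SE 0.57, edgeR adjusted p = 0.0493) and the log2 fold change was -2.77 (edgeR adjusted p = 0.00881) without knockout 1. Slc7a9 (chr7:36234056-36251055, plus strand), the light chain, was at 161, 135 and 276 CPM in controls and at 72.6, 39.3 and 31.6 CPM in knockouts. It fell 3.98-fold (log2 fold change -1.99, SE 0.40, edgeR adjusted p = 0.0311). In both genes the order of the knockouts was the same, with knockout 1 highest and knockout 3 lowest, and no knockout reached a control. An exon of Slc3a1 overlaps Prepl on the other strand, and the strand setting of the counting is not known, so a part of its reads could belong to Prepl.

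The remaining luminal carriers varied more. Slc1a1, the carrier of glutamate and aspartate, was at 291, 395 and 290 CPM in controls and at 218, 72.2 and 45.7 CPM in knockouts (log2 fold change -1.54, SE 0.56, edgeR adjusted p = 0.0917), so its groups were apart without passing the test, and without knockout 1 it passed, at -2.47 (edgeR adjusted p = 0.0029). Slc36a1 (chr11:55017852-55049832, plus strand), a proton-coupled carrier of small neutral amino acids that is also found on lysosomes, was at 110, 173 and 151 CPM in controls and at 83.6, 66.7 and 53.4 CPM in knockouts. It fell 2.13-fold (log2 fold change -1.09, SE 0.23, edgeR adjusted p = 0.0326) with no overlap. Slc36a2, its relative for glycine and proline, had a low level of 14.1, 5.23 and 4.92 CPM in controls and 4.61, 11.1 and 11.6 CPM in knockouts, which overlapped (log2 fold change 0.17, SE 0.53, edgeR adjusted p = 0.838, and 0.82 without control 1).

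Slc7a13, a light chain that pairs with Slc3a1 and carries aspartate, glutamate and cystine in the last part of the proximal tubule, rested on 1 library. It had 217, 14965 and 19 counts in controls 1 to 3 and 369, 40 and 11 counts in knockouts 1 to 3, or 10.8, 879.5 and 1.14 CPM against 18.1, 2.01 and 0.843 CPM. Control 2, the library with Y-linked transcripts, was the high value, and the other 5 libraries overlapped. The log2 fold change was -5.39 (SE 2.37, edgeR adjusted p = 0.141) with control 2 and 0.23 (edgeR adjusted p = 0.928) without it. As only 1 library had Y-linked transcripts, the sex of that mouse and the library itself cannot be told apart.

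Most luminal carriers are made in the proximal tubule, and markers of that segment moved with them. Of 16 proximal tubule markers outside the 7 families, 11 fell and 0 rose, and their summed level was 15490 to 21690 CPM in controls and 2886 to 8815 CPM in knockouts, with a median log2 fold change of -1.89, where 6.64% of all genes fell. Without knockout 1 the median was -2.54 with 15 of 16 called (34.4% of all genes), and without control 2 edgeR called 0 of 16, with 15 at an unadjusted p under 0.05 (27.4% of all genes). The leading ones were Slc34a3 (-2.75), a phosphate carrier, Lrp2 (-2.42), which encodes megalin, and Slc5a2 (-2.38), the glucose carrier. In whole kidney, fewer cells of a type and less RNA of a gene per cell cannot be told apart, and the part of the loss of proximal tubule markers in the luminal carriers' decrease was not tested.

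Of the 6 carriers for basolateral release and glutamine, 5 had a lower mean in knockouts and 1 fell by the test (6.64% of all genes fell), with a median log2 fold change of -0.76. Without knockout 1 the median was -1.09 with 2 called (34.4% of all genes). Without control 2 it was -0.85, with 0 called by edgeR and 5 at an unadjusted p under 0.05 (27.4% of all genes). Slc7a7 (chr14:54989128-55032856, minus strand) is the light chain that releases lysine and arginine to the blood, and its loss causes lysinuric protein intolerance. It was at 168, 163 and 282 CPM in controls and at 89.8, 78.0 and 58.2 CPM in knockouts, with every knockout well below every control. It fell 2.71-fold (log2 fold change -1.44, SE 0.28, edgeR adjusted p = 0.0302). An exon of Slc7a7 overlaps Oxa1l on the other strand, so the caution on strand holds here too. The 100 bases before 1 of its RefSeq transcript starts (chr14:54409473-54409572 in GRCm38.p6, minus strand, 5′ to 3′) are shown because a half-site of the tubule factor HNF1, GTTAAT, in capitals, lies there.
Slc7a7: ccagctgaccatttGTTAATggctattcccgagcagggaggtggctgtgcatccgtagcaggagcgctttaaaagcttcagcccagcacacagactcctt

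The heavy chain Slc3a2, which pairs with Slc7a5, Slc7a6, Slc7a7, Slc7a8 and Slc7a11, was at 252, 203 and 410 CPM in controls and at 224, 180 and 165 CPM in knockouts, with knockout 1 inside the control range (log2 fold change -0.60, SE 0.29, edgeR adjusted p = 0.167). Slc7a8, the light chain for neutral amino acids, was at 155, 115 and 440 CPM in controls and at 132, 68.7 and 68.1 CPM in knockouts (log2 fold change -1.40, SE 0.55, edgeR adjusted p = 0.108). Its control 3 was far above the others, and without it the log2 fold change was -0.60. Knockout 1 exceeded control 2. Slc7a6, a relative of Slc7a7 that most cells use, went the other way, with 19.6, 16.9 and 12.4 CPM in controls and 24.0, 34.1 and 23.3 CPM in knockouts (log2 fold change 0.73, SE 0.24, edgeR adjusted p = 0.0716). Its groups did not overlap, although it was not called.

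Slc43a2, a uniporter that lets branched-chain and aromatic amino acids out of the cell, was at 262, 310 and 293 CPM in controls and at 221, 126 and 111 CPM in knockouts (log2 fold change -0.92, SE 0.28, edgeR adjusted p = 0.0625). All knockouts were below all controls, with knockout 1 close to them, and without knockout 1 it passed, at -1.30 (edgeR adjusted p = 0.0035). Slc38a3, which brings glutamine from the blood for ammonia production, was at 115, 77.6 and 69.8 CPM in controls and at 102, 62.7 and 32.6 CPM in knockouts, and the groups overlapped (log2 fold change -0.41, SE 0.40, edgeR adjusted p = 0.486).

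Because light chains need a heavy chain, each light chain was also expressed as a percentage of its heavy chain, in CPM per kilobase of exon. Slc7a7 stood at 86.9%, 104% and 89.6% of Slc3a2 in controls 1 to 3 and at 52.1%, 56.5% and 46.0% in knockouts 1 to 3 (mean 93.6% ± 9.39 against 51.6% ± 5.26, SD, n = 3, exact permutation p = 0.1, two-sided). This p is the smallest that 3 against 3 allows, so it cannot pass 0.05, but the groups were apart. Relative to Slc3a2, Slc7a6 and Slc7a5 were higher in knockouts with no overlap, with Slc7a6 at 5.05% ± 2.31 against 11.6% ± 3.29 and Slc7a5 at 2.85% ± 1.48 against 7.12% ± 0.551 (SD, n = 3, exact permutation p = 0.1 each). Slc7a11 remained a small share, at 0.0353% ± 0.0223 against 0.395% ± 0.325 (SD, n = 3). No test is given for it, since it met the count rule only through the knockouts, where it is high. Slc7a8 overlapped at 55.0% ± 20.6 against 33.8% ± 8.09 (SD, n = 3, exact permutation p = 0.2). For the cystine exchanger, Slc7a9 was 44.8% ± 31.7 of Slc3a1 in controls and 49.3% ± 22.6 in knockouts (SD, n = 3, exact permutation p = 0.8), so no difference in this ratio could be told from the spread. With Slc7a13 against Slc3a1 (exact permutation p = 0.8), 7 such ratios were computed, and none can reach 0.05 before or after adjustment.

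**Figure D3:**
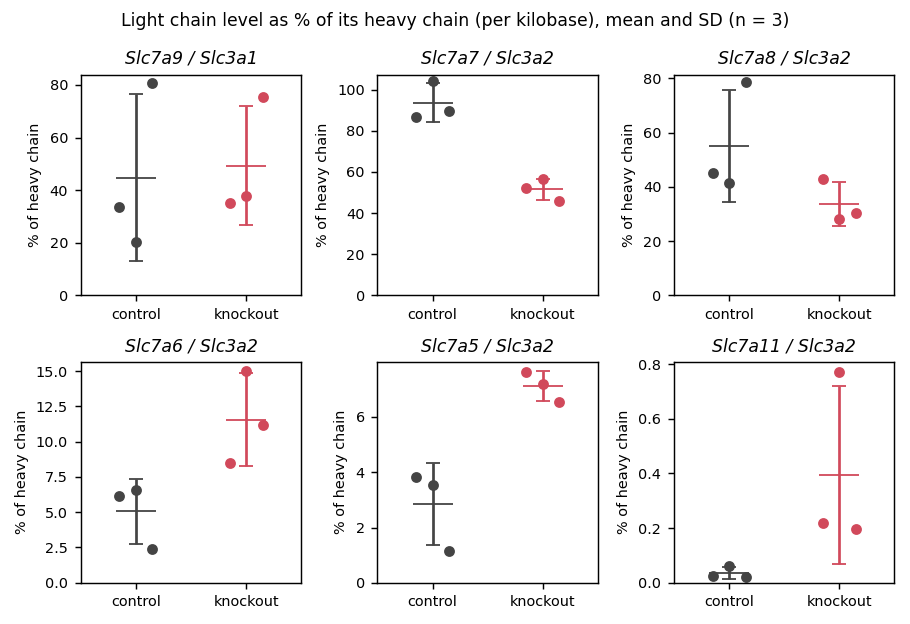
Light chain level as a percentage of its heavy chain, both in CPM per kilobase of exon (y axis), for 6 pairs in 3 control and 3 knockout libraries; points are libraries and bars the mean and SD. Slc7a7 against Slc3a2 separates into 86.9% to 104% in controls and 46.0% to 56.5% in knockouts, while Slc7a9 against Slc3a1 overlaps.

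The 4 carriers of osmolytes, creatine and GABA all had a lower mean in knockouts, none passed edgeR's test, and their median log2 fold change was -1.11. Slc6a12, which takes up betaine in the renal medulla and also carries GABA, was at 24.0, 13.3 and 7.86 CPM in controls and at 7.85, 0.401 and 0.690 CPM in knockouts. The mean was 4.97-fold lower (log2 fold change -2.31, SE 1.05, edgeR adjusted p = 0.154), and knockout 1 lay just under control 3 while knockouts 2 and 3 held only 8 and 9 counts. Slc6a13, a carrier of GABA and taurine, was at 156, 179 and 104 CPM in controls and at 95.0, 32.4 and 25.4 CPM in knockouts, with no overlap (log2 fold change -1.52, SE 0.51, edgeR adjusted p = 0.0772). Slc6a8, the creatine carrier, was at 233, 273 and 336 CPM in controls and at 213, 158 and 149 CPM in knockouts (log2 fold change -0.69, SE 0.22, edgeR adjusted p = 0.0655). The taurine carrier Slc6a6 differed from these 3, at 446, 663 and 326 CPM in controls and 427, 387 and 566 CPM in knockouts (log2 fold change -0.06, SE 0.30, edgeR adjusted p = 0.905). Its groups overlapped, and the sign turned without control 2. Without knockout 1 the other 3 passed, with log2 fold changes of -4.82 for Slc6a12, -2.35 for Slc6a13 and -0.87 for Slc6a8 (edgeR adjusted p = 0.00429, 0.00332 and 0.0185). In that fit 34.4% of all genes were called. Without control 2 edgeR called 0 of the 4, with 1 at an unadjusted p under 0.05 (27.4% of all genes).

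Carriers that feed cells went mostly the other way. Of 14, 12 had a higher mean in knockouts, 4 rose and 0 fell by edgeR's test, with a median log2 fold change of 0.83. Among all genes 10.6% rose and 6.64% fell, and of the 4 Slc7a11 entered only through the knockouts. Without knockout 1 the median was 1.04 with 6 called (34.4% of all genes). Without control 2 it was 0.94, with 0 called by edgeR and 6 at an unadjusted p under 0.05 (27.4% of all genes). Slc7a2 (chr8:41947750-42007662, plus strand), a carrier of arginine and lysine that macrophages use to supply nitric oxide synthase, was at 4.08, 2.70 and 5.88 CPM in controls and at 14.4, 70.0 and 55.2 CPM in knockouts. It rose 11-fold (log2 fold change 3.46, SE 0.62, edgeR adjusted p = 0.029), the largest rise among the 47 transporter genes, with knockouts 2 and 3 far above knockout 1 and all above the controls. An exon overlaps Gm17475 on the other strand. Slc7a1 (chr5:149138986-149211480, minus strand), the arginine carrier of most cells, was at 37.1, 25.6 and 19.2 CPM in controls and at 44.4, 69.3 and 55.7 CPM in knockouts. It rose 2.06-fold (log2 fold change 1.05, SE 0.28, edgeR adjusted p = 0.046), with knockout 1 only a little above control 1.

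Slc7a11 (chr3:50168858-50247535, minus strand) is the light chain that imports cystine in exchange for glutamate and so supplies glutathione synthesis. It had 5, 8 and 5 counts in controls and 38, 105 and 16 counts in knockouts, or 0.249, 0.470 and 0.300 CPM against 1.87, 5.27 and 1.23 CPM. It rose 8.17-fold (log2 fold change 3.03, SE 0.67, edgeR adjusted p = 0.0339), and all knockouts lay above all controls. No control reached the 10 counts of the rule, so it entered the gene set only through the knockouts and its call is not independent of that choice. The log2 fold change was 2.18 (edgeR adjusted p = 0.0743) without knockout 2, its highest library. The level stayed low, so these values rest on few reads. The 100 bases before its RefSeq start (chr3:50443614-50443713 in GRCm38.p6, minus strand, 5′ to 3′) are shown because they hold 2 matches, in capitals and on opposite strands, to TGATGNAA, the composite element of C/EBP and ATF factors through which amino acid shortage acts.
Slc7a11: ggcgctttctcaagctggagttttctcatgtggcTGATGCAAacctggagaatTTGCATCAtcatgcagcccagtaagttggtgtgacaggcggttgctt

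Slc38a2 (chr15:96517825-96530129, minus strand), a sodium-coupled carrier of small neutral amino acids that cells make more of when amino acids are short, was at 164, 157 and 121 CPM in controls and at 196, 327 and 371 CPM in knockouts. It rose 2.02-fold (log2 fold change 1.02, SE 0.27, edgeR adjusted p = 0.0465) with no overlap. Its close relative Slc38a1 was lower in abundance, at 16.8, 13.2 and 8.46 CPM against 22.8, 18.7 and 16.6 CPM (log2 fold change 0.59, SE 0.28, edgeR adjusted p = 0.165), and knockout 3 lay just under control 1. Slc7a5, the leucine carrier that serves growing cells, was at 11.5, 8.58 and 5.58 CPM in controls and at 20.3, 15.4 and 12.8 CPM in knockouts. Its groups did not overlap and it missed the threshold (log2 fold change 0.92, SE 0.32, edgeR adjusted p = 0.0816). Slc1a5, the glutamine carrier often named with Slc7a5, was at 144, 98.2 and 126 CPM against 106, 128 and 151 CPM and overlapped (log2 fold change 0.06, SE 0.20, edgeR adjusted p = 0.837).

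The other 7 cell nutrition carriers were not called. The log2 fold change was 1.31 for Slc43a1, 0.84 for Slc7a10, 0.82 for Slc43a3, 0.74 for Slc7a3, 0.68 for the glycine carrier Slc6a9, -0.49 for Slc1a4 and -0.80 for Slc38a4. Slc43a1, a carrier of branched-chain amino acids, ran from 2.12 to 2.79 CPM in controls and from 1.91 to 8.73 CPM in knockouts, and without knockout 1 it passed, at 1.72 (edgeR adjusted p = 0.0079), as did Slc43a3 at 1.05 (edgeR adjusted p = 0.0252). Slc7a10 rested on 2 to 42 counts per library and overlapped widely, with -0.45 without knockout 3 and 1.74 without control 1.

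**Figure D4:**
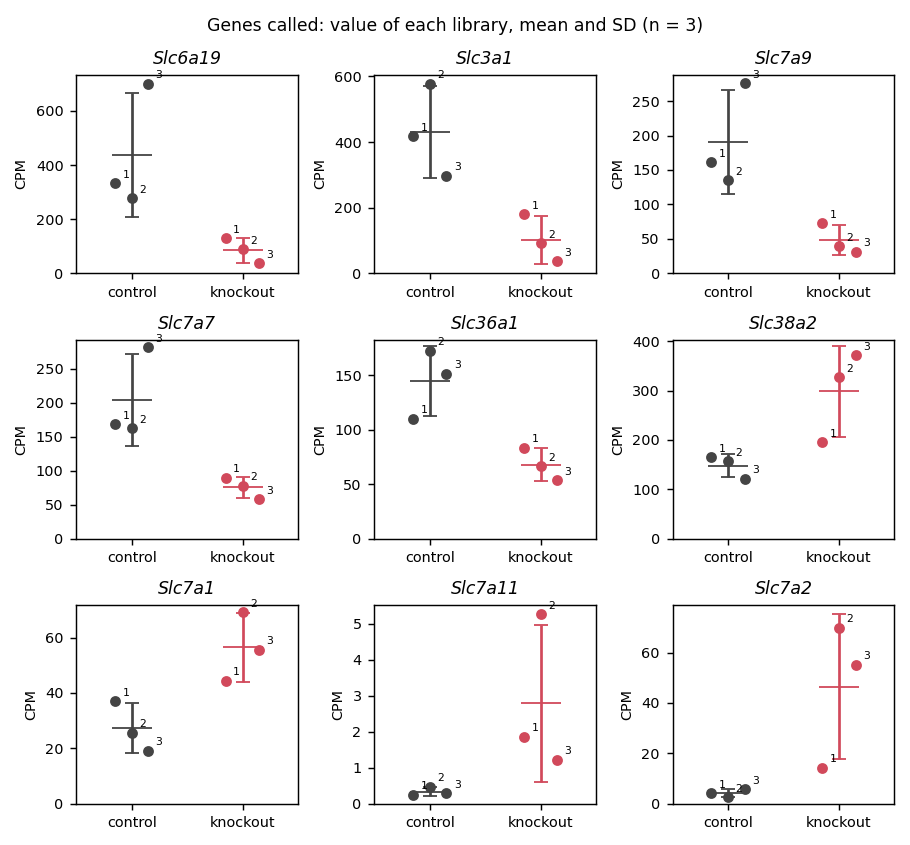
CPM (y axis, from 0) of the 9 transporter genes called by edgeR, in 3 control and 3 knockout libraries; points are libraries with their replicate number, and bars the mean and SD (n = 3). The 5 genes that fell and the 4 that rose all have separate groups, and knockout 1 lies nearest the controls in all but Slc7a11, where knockout 3 does.

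Markers of other cell types moved with the 4 carriers that rose. Of 11 macrophage markers 10 rose, and their summed level was 207.8 to 237.5 CPM in controls and 665.2 to 2387 CPM in knockouts, with Lyz2 (3.99), Adgre1 (3.36) and Itgam (3.32) leading by log2 fold change. Of 8 fibroblast and myofibroblast markers 4 rose (359.2 to 679.7 CPM against 1050 to 4057 CPM), of 8 lymphocyte markers 3 rose (5.42 to 9.25 CPM against 17.5 to 62.4 CPM), and of 7 cell cycle genes 3 rose. Without knockout 1, 7 of the 8 fibroblast and 6 of the 8 lymphocyte markers were called. Of all genes tested, 10.6% rose with all libraries and 34.4% were called without knockout 1. Of 8 tubular injury genes 7 rose, led by Havcr1 (log2 fold change 5.80), which encodes kidney injury molecule 1, and no marker of these 5 lists was at 0 in all libraries. Without control 2 edgeR called 0 genes of these 5 lists. At an unadjusted p under 0.05 it then found 10 of 11 macrophage, 5 of 8 fibroblast and 5 of 8 lymphocyte markers. The same fit found 3 of 7 cell cycle and 7 of 8 injury genes, where 27.4% of all genes were found. Among 5 endothelial markers none was called, and among 5 podocyte markers 1 was (Synpo, 1.05). The part of these cells in the higher levels of Slc7a2, Slc7a11, Slc7a1 and Slc38a2 was not tested.

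Of 6 carriers of glutamate and other neurotransmitters, 5 had a lower mean in knockouts, none was called, and the median log2 fold change was -1.08. The groups did not overlap for Slc6a15 (-1.73, edgeR adjusted p = 0.07), a carrier of branched-chain amino acids, for Slc6a4 (-1.29, edgeR adjusted p = 0.0883), the serotonin carrier, and for Slc1a2 (-1.08, edgeR adjusted p = 0.0941), a glutamate carrier. Slc6a17 was at -1.08 and the proline carrier Slc6a7 at -0.69, both with overlap, and Slc6a7 was at 0.61 without control 3. Slc1a3, a glutamate carrier of glial and other cells, alone had a higher mean, at 0.40. The level of Slc6a15 ran from 64.4 to 94.4 CPM in controls and from 8.04 to 44.9 CPM in knockouts. Without knockout 1 the 3 with separate groups passed, at -2.55 for Slc6a15, -1.96 for Slc6a4 and -1.62 for Slc1a2 (edgeR adjusted p = 0.00628, 0.00737 and 0.01). Of all genes, 46.0% had separate groups with all libraries and 34.4% were called without knockout 1. Without control 2 edgeR called 0 of the 6, with 2 at an unadjusted p under 0.05 (27.4% of all genes).

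None of the 4 lysosomal carriers was called. Slc38a7, which exports glutamine from lysosomes, had the smallest difference of the 47 (0.01 on the log2 scale, SE 0.13, edgeR adjusted p = 0.974) and lay between 28.1 and 32.6 CPM in all 6 libraries. The arginine sensor Slc38a9 was at 0.20, Slc36a4 at 0.50 and Slc7a14 at -0.18, none called and all with overlap. Their standard errors ran from 0.13 for Slc38a7 to 0.34 for Slc36a4.

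Among the 6 less characterised transporter genes none was called. Slc7a12, a carrier of the kidney's tubules, was at 210, 108 and 87.9 CPM in controls and at 66.6, 16.4 and 3.45 CPM in knockouts, with no overlap and a wide spread (log2 fold change -2.22, SE 0.93, edgeR adjusted p = 0.126). Without knockout 1 it passed, at -3.75 (edgeR adjusted p = 0.0128). Slc38a11 was low, with 26, 13 and 5 counts in controls and 19, 33 and 95 counts in knockouts. Knockout 3 was far above the others, and the fitted difference was 2.02 on the log2 scale (SE 0.88, edgeR adjusted p = 0.14) and 0.70 without knockout 3. The log2 fold change was 0.60 for Slc7a4, whose groups did not overlap, -0.12 for Slc38a6 and -0.24 for Slc38a10. Slc7a15, which was not tested, had 10, 1 and 6 counts in controls and 20, 13 and 2 in knockouts.

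The make-up of the transporter transcripts differed between the groups. Summed over the 47 transporter genes with a known exon length, the level was 1451, 1821 and 1535 CPM per kilobase in controls 1 to 3 and 927, 642 and 578 CPM per kilobase in knockouts 1 to 3. Without Slc7a13, control 2 stood at 1410, next to control 1 at 1446 and control 3 at 1534. Luminal carriers gave 47.8%, 62.1% and 48.8% of the sum in controls and 38.7%, 24.9% and 17.0% in knockouts. Cell nutrition carriers gave 7.19%, 5.29% and 5.25% in controls and 11.7%, 25.4% and 29.8% in knockouts. Both shares were apart between the groups, and both were nearest the controls in knockout 1. The leading gene was Slc6a18 in controls 1 and 3 and in knockout 1, Slc7a13 in control 2, Slc38a2 in knockout 2 and Slc6a6 in knockout 3.

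**Figure D5:**
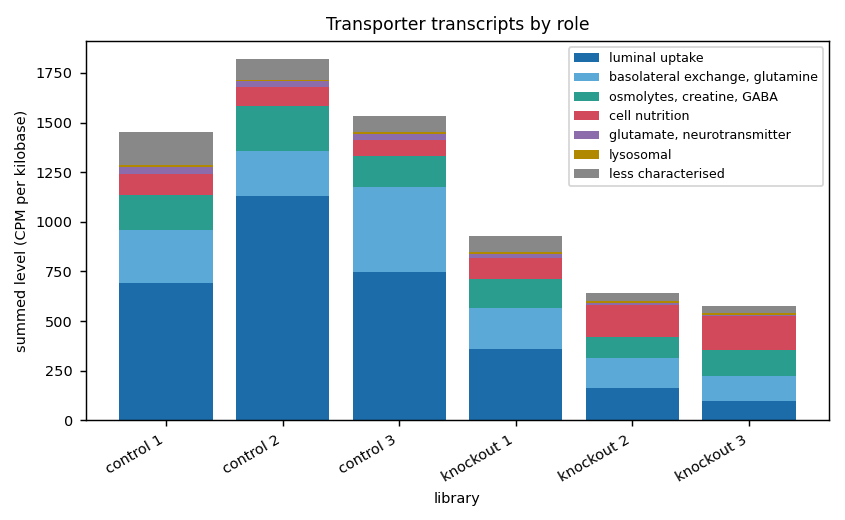
Summed level of the 47 transporter genes with a known exon length, in CPM per kilobase of exon (y axis, from 0), in each of the 6 libraries (x axis), split by role. The bars of the knockouts are shorter (578 to 927 against 1451 to 1821), mainly in the luminal segment, while the cell nutrition segment is taller (108 to 172 against 80.6 to 104).

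Genes that work with these carriers were described from lists outside the gene set, which also hold Slc6a20a and Slc6a20b, whose symbols end in a letter that the symbol rule did not match. Of 12 partners and other amino acid or peptide carriers tested, 8 fell and 0 rose, with a median log2 fold change of -1.37. They included Slc6a20b (-2.24), a proline carrier, Tmem27 (-1.75, collectrin), which brings Slc6a19 and Slc6a18 to the brush border, and Anpep (-1.65), a brush border aminopeptidase. Of 13 genes of glutamine, arginine and creatine metabolism 6 fell and 0 rose, with a median of -0.93, and 10 were called without knockout 1 (34.4% of all genes). The leading ones were Ass1 (-2.42) for arginine synthesis, Gatm (-2.29) for the first step of creatine synthesis and Pck1 (-2.20) for glucose synthesis from glutamine. Of 12 genes of the amino acid response, which cells use when amino acids are short, 4 rose and 1 fell, with a median of 0.82. The transcription factor Atf3 (3.55) and Trib3 (2.58), a target of this response, rose, and Shmt2 (-1.47), a mitochondrial enzyme of serine and glycine conversion, fell. For comparison, 10.6% of all genes rose and 6.64% fell, and without control 2 no gene of these lists was called by edgeR, with 8 of 12, 8 of 13 and 6 of 12 at an unadjusted p under 0.05.

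Markers of the distal nephron segments were also measured. Of 8 genes of the thick ascending limb none was called (median log2 fold change -1.15, summed level 5998 to 12390 CPM in controls and 1171 to 7571 CPM in knockouts), of 4 genes of the distal convoluted tubule 1 fell (Pvalb, -3.25), and of 9 collecting duct genes none was called (median -0.15). Without knockout 1 edgeR called 6 of the 8 genes of the thick ascending limb (median -2.17, with Egf at -5.20 and Umod at -3.55), 1 of 4 of the distal convoluted tubule (median -1.74) and 2 of 9 of the collecting duct (median -0.91), where 34.4% of all genes were called. Knockout 1 lay inside the control range for the summed thick ascending limb markers, as it did for many transporter genes.

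Promoter letters were compared over 32 of the 48 transporter genes, those with a RefSeq window of 250 bases before to 50 after a transcript start. Of the 9 called genes 8 had a window, and Slc7a2 had none. GTTAAT was found on either strand in 3 of the 5 genes that fell (Slc3a1, Slc36a1 and Slc7a7), in 0 of 3 that rose and in 1 of 23 that were not called (Slc6a13), as well as in Slc7a15, which was not tested, and 8.24% of all genes with a window held it. TGATGNAA was found in 1 of the 3 that rose (Slc7a11), in 1 of the 5 that fell (Slc7a7, at other starts than the one printed) and in 1 of 23 not called (Slc1a4), against 4.51% of all genes. TGACNNNGC, the antioxidant response element, was found in 2 of 3 that rose (Slc38a2 and Slc7a1), 1 of 5 that fell (Slc36a1) and 4 of 23 not called, against 14% of all genes. These motifs were chosen after the calls were known, and genes with several starts have several windows, so the counts are a description of letters and not of binding.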

How the data were processed

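Poly-A enriched RNA of 6 whole kidneys was sequenced, and the deposited tables (1 per group, 2 in all) hold raw counts per gene that the authors made without normalization. According to the submitters' processing notes and the study's methods, the authors used CASAVA 1.8.2, Trimmomatic, TopHat2 2.0.11 on mm9 and HTSeq on uniquely mapped reads. The annotation and strand setting of the counting are not given in the sources used here, so overlapping and antisense genes are uncertain. All per-sample columns were matched to samples by title (0 unmatched). Labels do not say whether libraries came from separate litters, so p-values measure the spread between these samples. The study's supplement describes littermate wild type controls for its expression comparisons, without saying which libraries shared a litter, and the main fit used no pairing.

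Counts were analysed with edgeR 4.0.16 in R 4.3.3: filterByExpr defaults (minimum count 10, minimum total 15), TMM, glmQLFit and glmQLFTest with no covariate, and Benjamini-Hochberg adjustment over all 15171 genes. Depth was 11501053 to 21001341 counts. Replicates differed beyond sampling noise (chi-square per degree of freedom 52.9 to 125.5), so each library counted once. Tested on simulated data for this comparison (15171 genes), the fit called 13 of 100 genes changed 2-fold and 69 of 100 changed 4-fold, with the right sign each time, and it called 6 genes that had not been changed. Far fewer genes were changed there than the 2612 called in the real data, so these shares do not carry over directly. Alternatives used DESeq2 1.42.0 and limma 3.58.1, other scalings and filters, a replicate block and leaving out each library.

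Exon lengths, coordinates and overlaps are from GENCODE M1 on mm9 (NCBIM37), which does not name Slc38a9, so that gene has no length here. At least 98.4% of the 100-base words of each member's longest transcript were unique. Promoters are from RefSeq on GRCm38.p6. The members, role groups and lists were chosen with earlier results of these data known. Named with per-library values are all luminal, basolateral and osmolyte carriers, called members, 7 further members and the 3 largest rises and falls. From other lists at most 3 called genes of largest change are named, and Synpo and Pvalb as the only calls of theirs. A member of the partner list is not reported here and was left out of its list.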

Additional observations from a re-analysis of the deposited data

How the results depend on the processing

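The count of 9 transporter genes called stayed 9 with DESeq2 size factors, no filter, the count rule as filter and the newer quasi-likelihood version, and all 9 were among the calls each time. It was 13 with library size alone (5 lower, 8 higher), which raised the median over all genes from 0.02 to 0.29 on the log2 scale and the share of higher genes among calls from 61.4% to 81.8%, and the median of the transporter genes from -0.24 to 0.0283. It was 6 with limma-voom (Slc3a1, Slc7a2 and Slc38a2 lost) and 23 with DESeq2's Wald test (16 lower, 7 higher, 32.2% of all genes against 17.2%). With the replicate block edgeR called 0 transporter genes and 0 of all 15171 genes. At an unadjusted p under 0.05 it then found 24 of 47 transporter genes and 5432 of all genes. Deviations of same-numbered libraries correlated at -0.13, 0.01 and 0.21, and with so few libraries this cannot show whether they shared a litter or batch. Leaving out 1 library gave 0 to 21 calls, with 21 only without knockout 1. Why these counts differ was not tested, but each such fit rests on 5 libraries.

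Of the 47 transporter genes, 37 kept their sign in every alternative and 10 did not, none of them called. Slc38a7 was -0.0125 with DESeq2 size factors, -0.0059 with no filter and -0.0123 with the Wald test. With library size alone Slc38a10 was 0.0283, Slc38a6 0.15, Slc7a14 0.087 and Slc6a6 0.23, and with limma-voom Slc6a6 was 0.002. With 1 library left out the log2 fold change ranged from -0.048 to 0.0757 for Slc38a7, -0.0817 to 0.18 for Slc1a5, -0.0906 to 0.82 for Slc36a2, -7.65 to 0.23 for Slc7a13, -0.28 to 0.24 for Slc6a6, -1.17 to 0.61 for Slc6a7, -0.26 to 0.0917 for Slc38a6 and -0.45 to 1.74 for Slc7a10. The simulated recovery of 13% at 2-fold does not carry over to these data, since far fewer genes were changed there than the 2612 called here. How often a 2-fold change would be called with 3 libraries a group was therefore not measured. Slc38a2, Slc7a1 and Slc36a1 were called at 2.02-fold, 2.06-fold and 2.13-fold, while Slc6a18, 3.26-fold lower, was not.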

Other observations

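A further 11 genes of the 7 families were below the count rule and went into no comparison. Slc36a3, Slc38a8, Slc6a11 and Slc6a5 had 0 counts in all 6 libraries. Slc1a6, a glutamate carrier known from cerebellar neurons, had 1, 0 and 2 counts in controls and 4, 22 and 9 in knockouts. Slc1a7 had 10, 8 and 7 counts in controls and 2, 5 and 0 in knockouts, and Slc6a14, a broad amino acid carrier, had 9, 7 and 11 against 3, 5 and 5. The noradrenaline carrier Slc6a2 had 3, 2 and 7 counts in controls and 6, 12 and 14 in knockouts.

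Control 2 was the highest of the 6 libraries for 9 of the 47 transporter genes tested, Slc7a13 among them.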
